A study of Mus musculus with 12 samples.

Results

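Of the 19938 genes that the array annotation gives a row of their own, 10 were followed here: the Wnt ligands Wnt4, Wnt5a, Wnt7a, Wnt7b, Wnt11 and Wnt16, the secreted antagonists Sfrp1 and Sfrp4, the receptor Lgr5 and the feedback gene Axin2. A row counted for a gene when its annotation held exactly 1 symbol, and the row with the highest mean over all arrays stood for a gene with several. All 10 genes had a row, and Wnt4 had 2. Endometrium was scraped from the uterus of CBAF1 females, the F1 offspring of CBA and C57Bl/6 mice, aged 9 to 16 weeks. The 12 arrays held 4 pools of unmated virgin estrus females (control), 4 of females mated 8 h earlier with vasectomised BALB/c males, and 4 of females mated 8 h earlier with intact ones. The males were 12 to 28 weeks old. Vasectomy, at 6 to 8 weeks of age, leaves seminal plasma and withholds sperm and fluid from the testis and epididymis. Each pool held RNA of 4 females, so the spread between arrays is a spread between pools. Mated and unmated females also differed in the hour at which tissue was taken, since the design places the unmated females, labelled estrus, on the evening of pro-estrus. Mated females were caged with males later in the night of pro-estrus, so their tissue was taken at a later point of the cycle. Mating, that interval and the point of the cycle cannot be told apart. Values are on the log2 scale of the deposited table, where a difference of 1 is a doubling.

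Wnt proteins are secreted lipid-modified signals that act over short distances. They bind Frizzled receptors together with the coreceptors Lrp5 and Lrp6, and in the canonical branch this spares beta-catenin from destruction, so that it enters the nucleus and switches on target genes with TCF and LEF factors. Other Wnts, Wnt5a among them, mainly use receptors such as Ror2 and change cell shape and movement. Sfrp proteins carry a Frizzled-like domain that captures Wnts outside the cell, Lgr5 binds R-spondins and so keeps Frizzled receptors on the membrane, and Axin2 is a scaffold of the beta-catenin destruction complex that canonical signalling itself induces. In the uterus Wnt ligands pass between epithelium and stroma, shape the glands, and take part in the decidual response of the stroma.

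Calls required a 1.5-fold difference or more together with an adjusted p (Benjamini-Hochberg over all 35556 rows) no larger than 0.05, in a limma fit of all 12 arrays. Relative to controls, 2 of the 10 genes, Wnt4 and Wnt7b, were higher in intact-mated females and 1, Wnt5a, was lower. Of all genes 4.90% were called in that comparison, 2.78% as higher and 2.11% as lower. In vasectomised-mated females 1 of the 10, Wnt5a, was lower and 0 were higher, beside 1.85% of all genes called, 1.19% as higher and 0.657% as lower. Between intact- and vasectomised-mated females 0 of the 10 were called in limma, beside 0.898% of all genes, 0.627% as higher and 0.271% as lower after intact males. Of the 10, 4 had an unadjusted p under 0.05 there and 1, Wnt7b, an adjusted p under 0.05. Shares of all genes that pass a p threshold alone were not counted. Counts by p alone, here and for the lists below, therefore have no background beside them. The median log2 fold-change of the 10 genes was 0.07, 0.05 and 0.07 in these comparisons, and that of all genes was 0.01, -0.01 and 0.02. Both comparisons with unmated females used the same 4 control arrays. Wnt16, Wnt11, Wnt7a, the Sfrp genes, Lgr5 and Axin2 were called in none of the 3 comparisons.

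Promoter sequence was at hand for 5 of the 10 genes, in RefSeq windows of 250 bases before to 50 after the start in build GRCm38.p6. Those of Wnt4, the 1 called ligand with a window, and of Axin2, the canonical readout, are shown beside 1 window of Wnt11, called in no comparison. The core of the TCF and LEF site, CTTTGA, was searched on both strands and is in capitals where found. The Wnt4 window is chr4:137277385-137277684 on the plus strand, that of Axin2 chr11:108920099-108920398 on the plus strand and the Wnt11 window shown chr7:98834862-98835161 on the plus strand.
Wnt4: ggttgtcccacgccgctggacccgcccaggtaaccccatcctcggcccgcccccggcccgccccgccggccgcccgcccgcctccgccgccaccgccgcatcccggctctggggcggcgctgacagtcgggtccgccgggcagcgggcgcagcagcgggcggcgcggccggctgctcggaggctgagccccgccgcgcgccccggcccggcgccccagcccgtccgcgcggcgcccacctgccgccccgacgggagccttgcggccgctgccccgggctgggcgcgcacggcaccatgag
Axin2: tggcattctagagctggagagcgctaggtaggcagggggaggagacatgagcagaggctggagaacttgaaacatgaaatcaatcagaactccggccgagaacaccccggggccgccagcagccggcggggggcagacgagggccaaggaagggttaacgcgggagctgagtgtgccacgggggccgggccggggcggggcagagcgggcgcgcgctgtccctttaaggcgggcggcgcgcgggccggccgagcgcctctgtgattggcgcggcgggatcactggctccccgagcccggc
Wnt11: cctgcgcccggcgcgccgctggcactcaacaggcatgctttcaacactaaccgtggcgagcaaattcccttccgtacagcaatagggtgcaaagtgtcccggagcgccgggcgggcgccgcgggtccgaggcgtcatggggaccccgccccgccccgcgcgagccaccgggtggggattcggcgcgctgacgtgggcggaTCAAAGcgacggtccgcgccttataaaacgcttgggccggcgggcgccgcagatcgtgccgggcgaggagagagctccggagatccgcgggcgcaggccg
Of the 6 windows of these 5 genes 1, the Wnt11 window shown, held the core, on the reverse strand from 50 bases before the start, where 16.0% of all 32851 windows of this length held it. The other Wnt11 window, chr7:98838595-98838894, did not hold it, nor did those of Wnt7a and Wnt16, also called in no comparison. The windows of Wnt4 and Axin2 had 84.3% and 70.0% G or C. No match says only that these letters are not in this window.

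**Figure D1:**
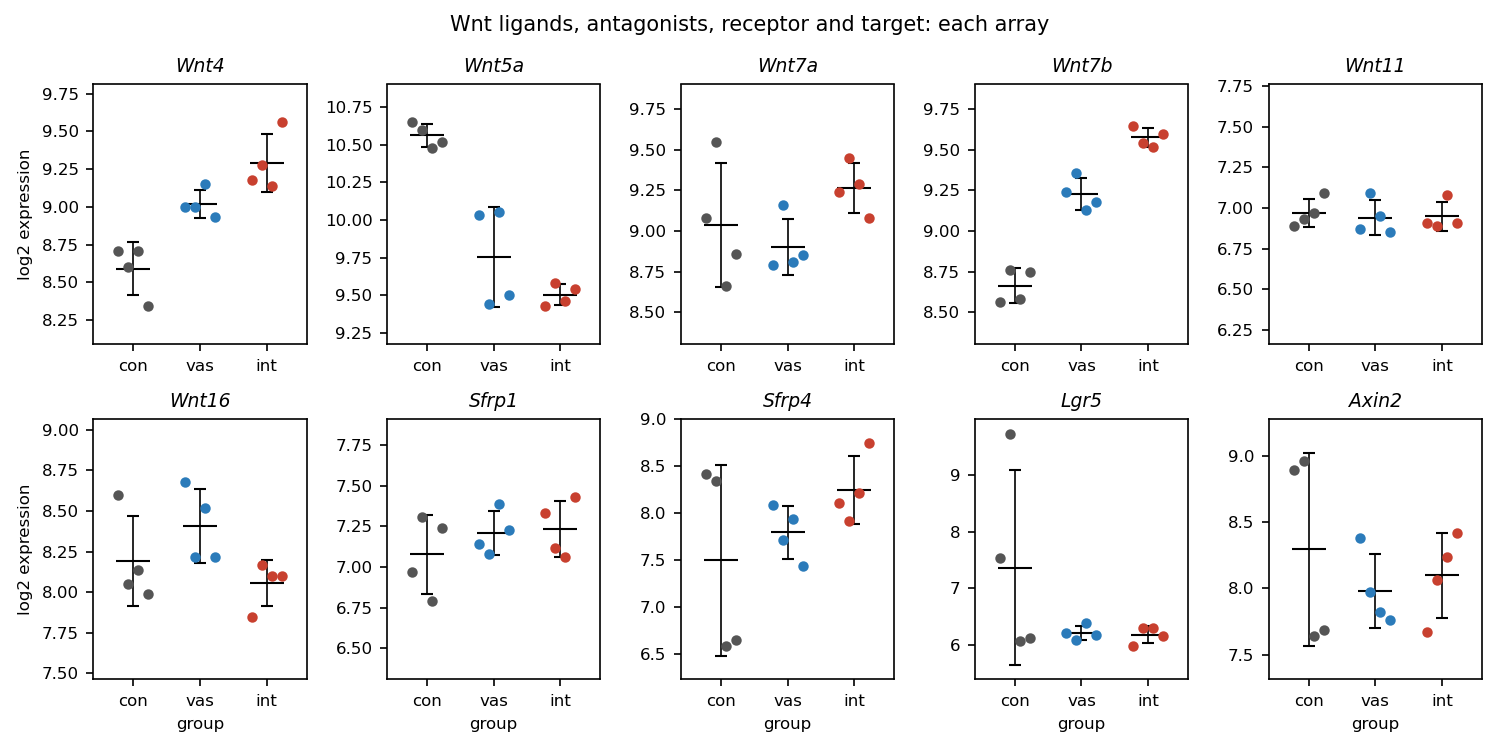
Log2 expression (vertical axis) of each of the 10 genes on each array of unmated control (con), vasectomised-mated (vas) and intact-mated (int) females. Points are arrays, horizontal bars are group means and error bars are SD (n = 4 per group), and each panel has its own vertical scale. Wnt7b separates all 3 groups, Wnt5a lies lower in both mated groups, and Sfrp4, Lgr5 and Axin2 spread widely among the controls.

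Wnt7b, a ligand made by uterine epithelium, was ordered by group with no overlap between any pair of groups. It stood at 8.56, 8.76, 8.58 and 8.75 on the control arrays. After mating with vasectomised males it stood at 9.24, 9.36, 9.13 and 9.18. After mating with intact males it stood at 9.65, 9.54, 9.52 and 9.60. Every vasectomised-mated array thus lay above every control array and below every intact-mated array. Relative to control Wnt7b rose 1.89-fold after mating with intact males (log2 fold-change 0.92, SE 0.07, limma adjusted p = 9.95e-06). After mating with vasectomised males the log2 fold-change was 0.57 (SE 0.07, limma adjusted p = 0.00144), a 1.48-fold difference that passed the p threshold and fell short of the fold threshold. The mated groups differed by 0.35 (95% interval 0.19 to 0.51, limma adjusted p = 0.0289), which also lay under 1.5-fold. Groups without overlap were found for 18.3% of all genes between intact-mated and control arrays, for 12.3% between vasectomised-mated and control arrays and for 16.5% between the mated groups.

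Wnt4, a ligand that the stroma uses in decidual differentiation and the epithelium also makes, moved the same way. Its control arrays read 8.71, 8.60, 8.71 and 8.34. The vasectomised-mated arrays read 9.0, 9.0, 9.15 and 8.93, and the intact-mated arrays 9.18, 9.28, 9.14 and 9.56. Both mated groups lay above all controls, and the mated groups met, since 1 vasectomised-mated array, at 9.15, exceeded 1 intact-mated array, at 9.14. Wnt4 rose 1.63-fold after mating with intact males (log2 fold-change 0.70, SE 0.11, limma adjusted p = 0.00116). After mating with vasectomised males its log2 fold-change was 0.43 (SE 0.11, limma adjusted p = 0.0427), below 1.5-fold. The difference between mated groups was 0.27 (95% interval 0.04 to 0.50, limma adjusted p = 0.213). The other Wnt4 row on the array gave log2 fold-changes of 0.87 and 0.51 relative to control (SE 0.11 each, limma adjusted p = 0.000298 and 0.0221), with the former called and the latter under the fold threshold.

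Of 11 measured epithelial markers 1, the transcription factor Ovol1, was higher after mating with intact males (log2 fold-change 0.68, limma adjusted p = 0.00338) and 0 were called after mating with vasectomised males. Grhl2, another epithelial transcription factor, passed the p threshold after intact males with a log2 fold-change of -0.28 (limma adjusted p = 0.0438), under 1.5-fold. The log2 fold-changes of the list ran from -0.28 to 0.68 with a median of 0.03 after intact males. Its summed linear level, which is weighted to the brightest members, ran from 46700 to 52100 in controls, from 47400 to 50100 after mating with vasectomised males and from 48800 to 51100 after mating with intact males. The part of epithelial cells in the Wnt4 and Wnt7b results was not tested. The 5 gland markers were called in neither mated group.

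Wnt5a, the stromal ligand of the non-canonical branch, was lower in both mated groups. The control arrays were close together at 10.65, 10.60, 10.48 and 10.52. The intact-mated arrays were equally close at 9.43, 9.58, 9.46 and 9.54. The vasectomised-mated arrays fell into a higher pair at 10.03 and 10.05 (arrays 1 and 3) and a lower pair at 9.44 and 9.50 (arrays 2 and 4), which lay among the intact-mated arrays. All 8 mated arrays were below all 4 controls. Relative to control Wnt5a was 2.09-fold lower after mating with intact males (log2 fold-change -1.06, SE 0.13, limma adjusted p = 0.000246) and 1.76-fold lower after mating with vasectomised males (log2 fold-change -0.81, SE 0.13, limma adjusted p = 0.00479). The difference between mated groups was -0.25 (95% interval -0.53 to 0.03, limma adjusted p = 0.349) and did not pass the test.

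Of 12 measured stromal markers 2, the collagen gene Col1a1 and the proteoglycan gene Lum, were lower after mating with intact males, with log2 fold-changes of -0.75 and -0.97, and 0 were called after mating with vasectomised males. An unadjusted limma p under 0.05 was found for 8 of the 12 after intact males and for 2 after vasectomised males. The log2 fold-changes of the list had a median of -0.58 and ran from -0.97 to -0.0049 after intact males, and had a median of -0.33 and ran from -0.48 to 0.11 after vasectomised males. Its summed linear level was 24200, 21600, 15500 and 15100 on control arrays 1 to 4, ran from 14000 to 19800 after mating with vasectomised males and from 11500 to 16700 after mating with intact males. The part of the stromal cells in the Wnt5a result was not tested. In whole endometrium fewer cells of a type and less RNA per cell cannot be told apart. Among the markers Pdgfra, a receptor of stromal cells, had log2 fold-changes of -0.45 and -0.12, and Nr2f2, a stromal transcription factor, had -0.0049 and 0.11. Neither was among the 8 markers with an unadjusted limma p under 0.05 after intact males.

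**Figure D2:**
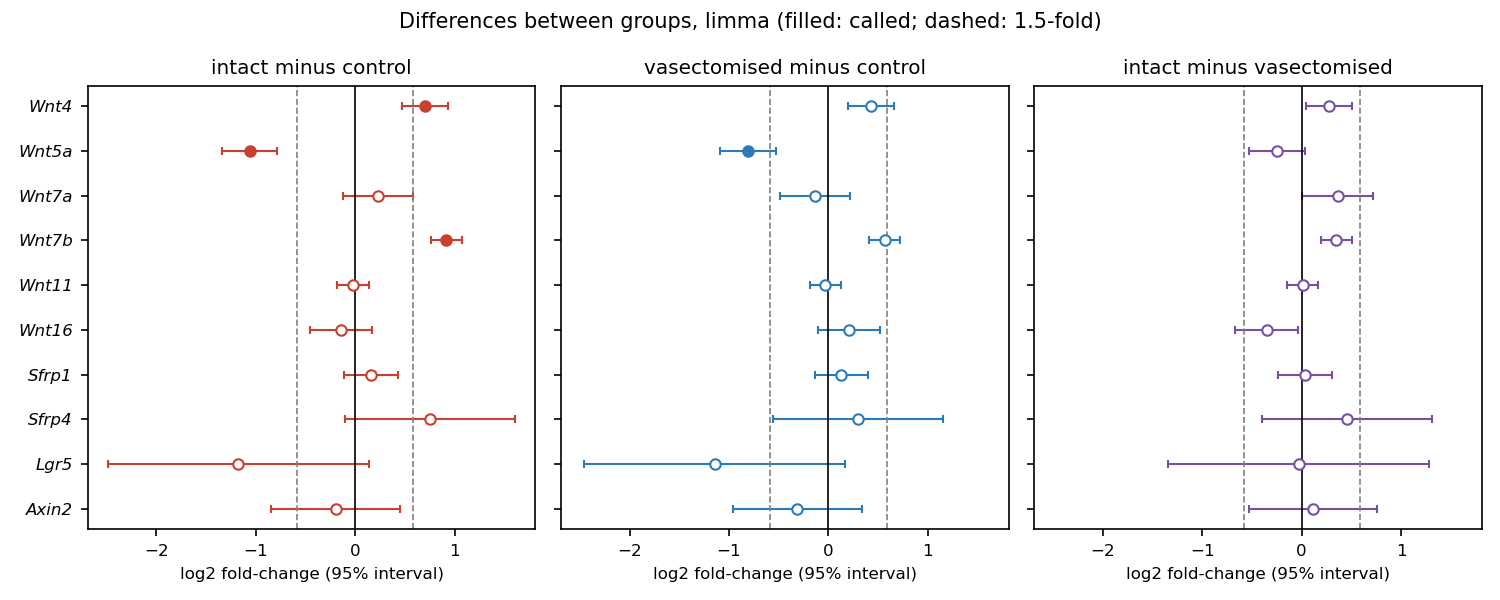
Log2 fold-change of the 10 genes (horizontal axis) between intact-mated and control, vasectomised-mated and control, and intact- and vasectomised-mated females, from limma over 4 arrays per group. Bars are 95% intervals of each gene by itself, filled points are called and dashed lines mark 1.5-fold. Wnt4, Wnt5a and Wnt7b have filled points on the left, Wnt5a alone in the middle and no gene on the right.

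The remaining ligands gave smaller differences. Wnt7a, which marks uterine epithelium and is needed for gland formation, ran from 8.66 to 9.55 in controls, from 8.79 to 9.16 after mating with vasectomised males and from 9.08 to 9.45 after mating with intact males. The groups overlapped in every pair, and its log2 fold-changes relative to control were 0.23 for intact (95% interval -0.12 to 0.58) and -0.13 for vasectomised males (95% interval -0.49 to 0.22). Wnt16 stood at 8.60, 8.05, 8.14 and 7.99 in controls. It was at 8.68, 8.22, 8.52 and 8.22 after mating with vasectomised males and at 7.85, 8.17, 8.10 and 8.10 after mating with intact males. All vasectomised-mated arrays lay above all intact-mated arrays, yet the difference of -0.35 between intact and vasectomised males (95% interval -0.67 to -0.04) did not pass the test over all rows (limma adjusted p = 0.227). Wnt11 lay between 6.85 and 7.09 on all 12 arrays, under the array medians of 7.25 to 7.32, and its log2 fold-changes were -0.02 and -0.03 (95% intervals -0.18 to 0.14 and -0.19 to 0.13). Lgr5 and Sfrp1 also had means below the median row of all rows, 7.28.

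The secreted antagonists were not called. Sfrp1 ran from 6.79 to 7.31 in controls, from 7.08 to 7.39 after mating with vasectomised males and from 7.06 to 7.43 after mating with intact males. Its log2 fold-changes were 0.16 after mating with intact males (95% interval -0.11 to 0.43) and 0.13 after mating with vasectomised males (95% interval -0.14 to 0.40). Sfrp4 was spread over the controls at 8.42, 8.34, 6.58 and 6.65. It was at 8.09, 7.71, 7.94 and 7.43 after mating with vasectomised males and at 8.11, 7.91, 8.21 and 8.75 after mating with intact males. All 8 mated arrays lay above control arrays 3 and 4, and 7 of them lay below control arrays 1 and 2. The log2 fold-change of Sfrp4 was 0.75 for intact males (SE 0.39, 95% interval -0.11 to 1.61) and 0.30 for vasectomised males (SE 0.39, 95% interval -0.56 to 1.15).

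Lgr5, the R-spondin receptor known as a marker of stem and progenitor cells in epithelia, was high on 2 control arrays. The control values were 7.54, 9.72, 6.08 and 6.13. The mated values ran from 6.10 to 6.40 after vasectomised and from 5.99 to 6.31 after intact males, so control arrays 3 and 4 lay among the mated arrays. The log2 fold-changes of -1.18 and -1.15 relative to control (SE 0.60 each, limma adjusted p = 0.278 and 0.340) rested on control arrays 1 and 2. Between the mated groups Lgr5 differed by -0.03, with a 95% interval of -1.34 to 1.28 that carries the spread of the controls.

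Axin2, the usual readout of canonical signalling, was parted in the same manner. Control arrays 1 to 4 read 8.89, 8.96, 7.64 and 7.69. The vasectomised-mated arrays read 8.38, 7.97, 7.82 and 7.76, and the intact-mated arrays 7.67, 8.06, 8.24 and 8.42. All 8 mated arrays fell between the lowest and the highest control. Its log2 fold-changes were -0.20 for intact males (95% interval -0.85 to 0.45) and -0.31 for vasectomised males (95% interval -0.96 to 0.34).

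The split of the controls ran through more of the pathway. A gap of at least 0.5 between the lower of control arrays 1 and 2 and the higher of control arrays 3 and 4 was found for 3 of the 10 genes (Sfrp4, Lgr5 and Axin2) and for 7 of 92 other genes of the pathway, beside 2.94% of all genes. The opposite order was found for 0 of the 10, 0 of the 92 and 0.135% of all genes. The 7 were Sfrp2, Nkd2, Dkk3, Apcdd1, Znrf3, Lef1 and Ror1, named after their values were seen. They came from 5 of the 8 lists. On the list of feedback and target genes 1 of 9, the Dishevelled-binding inhibitor Nkd2, showed the gap, and its relative Nkd1 had a gap of 0.18. On the list of antagonists 3 of 14 showed it, Sfrp2, Dkk3 and Apcdd1. Sfrp2 stood at 9.79, 9.82, 7.25 and 6.94 on the controls, with the mated arrays between 7.92 and 9.57. Apcdd1 stood at 8.90, 9.43, 7.87 and 7.81, with the mated arrays between 7.82 and 8.55, and Znrf3 at 8.97, 9.18, 8.10 and 8.12, with the mated arrays between 8.59 and 8.78. Summed levels of stromal markers, given above, of 6 blood endothelial markers, at 1850, 1790, 888 and 866, and of 6 macrophage markers, at 6070, 6000, 5490 and 4350, were also higher on control arrays 1 and 2. Sums of uterine epithelial markers, at 47900, 46700, 52100 and 50300, of smooth muscle markers, at 6550, 6520, 7190 and 7010, and of squamous markers, at 594, 591, 755 and 777, were lower there. The neutrophil sum was lower there too, at 1320, 1140, 1950 and 2100, through its brightest member Ly6g, at 9.60, 9.32, 10.48 and 10.67, while Csf3r had the opposite order at 6.87, 6.59, 6.30 and 6.29. Not every marker followed the sum of its list. Of the smooth muscle markers Des was higher on control arrays 1 and 2, at 9.90, 9.82, 9.33 and 9.19. The brightest of that list, Acta2, was lower there, at 11.17, 11.29, 11.46 and 11.49. Of the epithelial markers Cldn4 was higher there, at 10.51, 11.25, 10.32 and 10.06, and Krt8 lower, at 13.44, 13.40, 13.57 and 13.55. The part of these cell types in the split was not tested. Sums of gland markers, at 393, 601, 402 and 362, and of cell division markers, at 1200, 5130, 1940 and 5640, did not part control arrays 1 and 2 from control arrays 3 and 4.

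**Figure D3:**
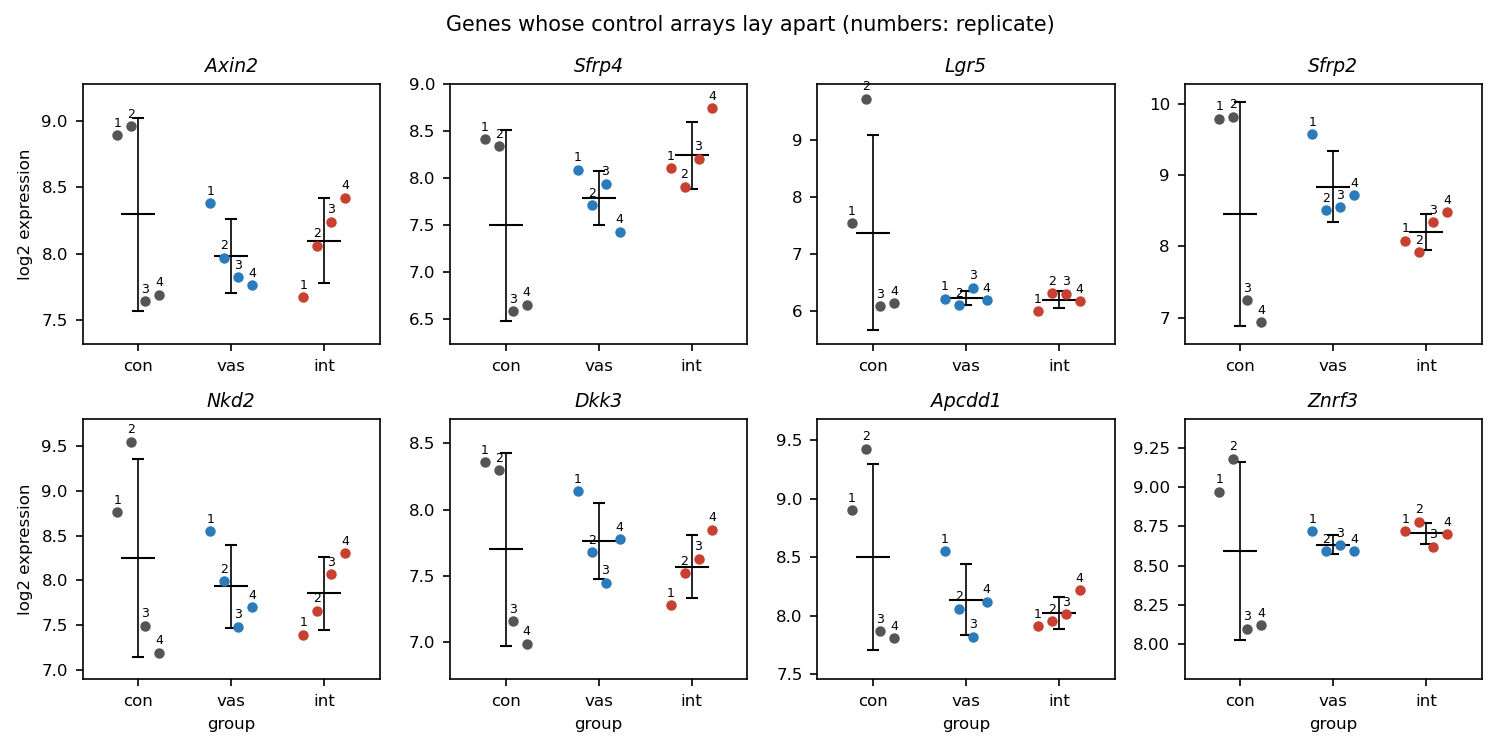
Log2 expression (vertical axis) on each array of unmated control (con), vasectomised-mated (vas) and intact-mated (int) females for the 8 genes with the widest gap between control arrays 1 and 2 and control arrays 3 and 4, chosen after their values were seen. Numbers beside points are replicates, horizontal bars are means and error bars are SD (n = 4), and vertical scales differ. In every panel control arrays 1 and 2 lie above control arrays 3 and 4, as for Axin2 at 8.89 and 8.96 against 7.64 and 7.69.

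Among 92 other measured genes of the pathway, listed by role with earlier results known, 2 rose and 2 fell in intact-mated females, and 1 rose and 2 fell in vasectomised-mated females. The share of all genes called was 4.90% and 1.85% in these comparisons, so the 4 calls of 92 after intact males are near the background. None was called between the mated groups in limma (13 had an unadjusted p under 0.05 and 5 an adjusted p under 0.05). The median log2 fold-change over them was -0.05, -0.07 and 0.00. Of 13 other Wnt ligands 0 were called in limma in any comparison (unadjusted p under 0.05 for 0, 2 and 1), and their log2 fold-changes relative to control ran from -0.10 to 0.05 after mating with intact males and from -0.24 to 0.06 after mating with vasectomised males. Wnt6 and Wnt5b were those that differed most, at -0.24 and -0.18 after vasectomised males. Wls and Porcn, which carry and acylate Wnt proteins in the cell that makes them, were not called either, and Porcn had log2 fold-changes of -0.16 and 0.02. Wls was lower after intact than after vasectomised males by 0.40 on the log2 scale (limma adjusted p = 0.0472), under 1.5-fold, with every intact-mated array below every vasectomised-mated array.

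Of the receptors, Fzd7, a Frizzled, stood at 8.20, 8.39, 8.29 and 8.30 in controls, at 8.94, 8.72, 9.05 and 8.97 after mating with vasectomised males and at 9.23, 9.40, 9.30 and 9.52 after mating with intact males. As for Wnt7b the 3 groups did not overlap. Intact males gave a 2.09-fold rise of Fzd7 (limma adjusted p = 1.11e-05), and vasectomised males a 1.54-fold rise (limma adjusted p = 0.00202). Between the mated groups Fzd7 differed 1.36-fold (log2 difference 0.44, SE 0.08, limma adjusted p = 0.0218). Fzd1 rose 1.64-fold after mating with intact males (log2 fold-change 0.71, SE 0.13, limma adjusted p = 0.00379) and stood 0.38 above control in vasectomised-mated females (limma adjusted p = 0.126). Fzd6, named after its values were seen like Lgr4 and Ctnnb1, was lower after intact than after vasectomised males by 0.40 (limma adjusted p = 0.0205), with vasectomised-mated arrays between 10.22 and 10.24 and intact-mated arrays between 9.76 and 9.95. Of the 16 receptors and coreceptors 14 and 15 were not called in the intact and vasectomised comparisons. A limma adjusted p of at most 0.05 was found for 6 after intact males, 4 as higher and 2 as lower. After vasectomised males it was found for 2, as higher. Fzd4 and Lrp5 are also named after their values were seen. Fzd4 ran from 7.49 to 7.83 in controls, from 7.92 to 8.19 after vasectomised and from 8.02 to 8.23 after intact males. Lrp5 ran from 10.38 to 10.49, from 10.45 to 10.73 and from 10.79 to 10.98 in that order.

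Lgr6, a relative of Lgr5 that also binds R-spondins, fell in both mated groups. It stood at 8.39, 7.96, 7.91 and 7.88 in controls, between 6.91 and 7.15 after mating with vasectomised males and between 6.81 and 7.01 after mating with intact males. Unlike Lgr5, all 4 controls lay above all mated arrays. The change was 2.19-fold after intact males (log2 fold-change -1.13, SE 0.11, limma adjusted p = 3.5e-05) and 2.00-fold after vasectomised males (log2 fold-change -1.0, SE 0.11, limma adjusted p = 0.000547). Lgr4, the third receptor of this kind, was lower after intact than after vasectomised males by 0.45 (limma adjusted p = 0.0235), under 1.5-fold. Of 8 genes of the R-spondin list 7 were not called in either mated group.

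Of 9 feedback and target genes 1, Tnfrsf19, a receptor of the TNF family that canonical signalling can induce, fell in both mated groups, to log2 fold-changes of -0.76 after intact and -0.78 after vasectomised males (SE 0.15, limma adjusted p = 0.00795 and 0.0153). Its controls stood at 9.18, 9.01, 8.50 and 8.54 and its mated arrays between 7.73 and 8.28. Of 14 other antagonists, 18 cytoplasmic and 12 nuclear genes 0 were called by limma in any comparison, while 2, 5 and 4 had an unadjusted p under 0.05 for intact and 3, 3 and 3 for vasectomised males. Among the antagonists Sfrp2 had the largest difference in any comparison, -0.63 between intact and vasectomised males (limma adjusted p = 0.638), and Dkk2 had the largest relative to control, -0.57 after intact males (limma adjusted p = 0.0581). Dvl1, which relays the Frizzled signal, had 0.23 after intact males (limma adjusted p = 0.0285), and Frat1 had 0.09 and 0.22 after intact and vasectomised males. The corepressor Tle3 had -0.45 and -0.31 (limma adjusted p = 0.0015 and 0.0295), and Tcf7l1, a TCF factor that mostly represses, had -0.41 and -0.28 (limma adjusted p = 0.012 and 0.107), all under 1.5-fold. Between the mated groups 1 of the 12 nuclear genes passed the limma adjusted p threshold, as higher after intact males. The largest rise of that list there was 0.39, for Bcl9l, named after its values were seen. Bcl9l ran from 10.20 to 10.46 after vasectomised and from 10.62 to 10.85 after intact males, under 1.5-fold. Ctnnb1, which encodes beta-catenin, had log2 fold-changes of -0.01 and 0.04 relative to control.

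**Figure D4:**
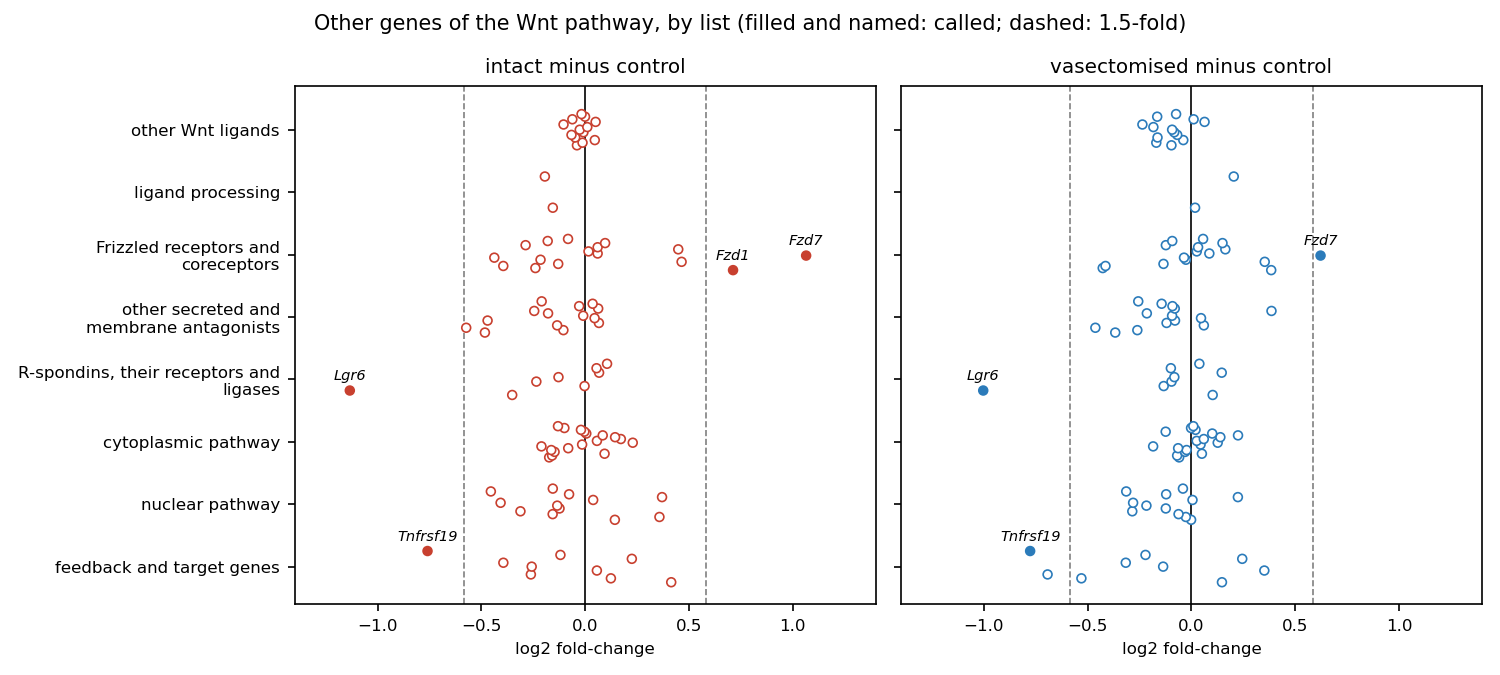
Log2 fold-change relative to control (horizontal axis) of 92 other genes of the Wnt pathway after mating with intact males (left) and with vasectomised males (right), grouped by role (vertical axis). Each point is a gene (means of 4 arrays per group), filled named points are called and dashed lines mark 1.5-fold. Fzd7 and Fzd1 stand to the right at 1.07 and 0.71 after intact males, Lgr6 and Tnfrsf19 to the left in both panels.

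For the 3 called genes the genes with the most similar pattern were sought over the 12 arrays by Pearson's r, given as a description since the arrays share groups. Wnt5a was closest to Pgr, the progesterone receptor gene (r = 0.983), whose mean went from 10.22 in controls to 8.88 after vasectomised and 8.23 after intact males. The deviations of both from their group means had r = 0.90. Enah and Gng12 followed, at 0.975 and 0.974. Wnt7b was closest to Cilk1, Jade1 and Cdk5rap3 (r = 0.987, 0.985 and 0.981), and Wnt4 to Unc93b1, Mapk13 and Tapbp (r = 0.965, 0.963 and 0.960). For deviations from group means r was 0.84 and 0.81 for Enah and Gng12 with Wnt5a. It was 0.67, 0.69 and 0.63 for the genes closest to Wnt7b, and 0.81, 0.80 and 0.83 for those closest to Wnt4, in the order named. All these genes, Pgr included, were picked by r over the same 12 arrays, so the r of deviations is not independent of that choice. Wnt5a varied mostly among the vasectomised-mated arrays (SD 0.33, beside 0.08 in controls and 0.07 after intact males). Tapbp, Enah, Gng12 and Cdk5rap3 were called in neither mated group, and the other genes were called relative to control after intact males. Of those others Pgr alone was also called after vasectomised males, as lower (log2 fold-change -1.34).

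Over the whole series arrays of a group correlated at 0.983 or more across rows. Of all genes 2.78% were called higher and 2.11% lower after intact males, and 1.19% and 0.657% after vasectomised males. Markers of neutrophils were higher after mating with intact males for 3 of 9 genes and for 0 of 9 after vasectomised males. Their summed levels were 1140 to 2100 in controls, 1360 to 1730 after vasectomised and 1480 to 1880 after intact males. That sum follows its brightest member, Ly6g, with means of 10.02 in controls and 9.57 after intact males. Cxcr2 and S100a9, far dimmer in controls, had means of 5.04 and 5.89 there and 7.29 and 7.32 after intact males. All 5 measured cell division markers were called as lower in intact-mated females, while 0 were called in vasectomised-mated females, where 5 had an unadjusted p under 0.05. Their log2 fold-changes ran from -2.57 to -1.54 after intact males and from -1.87 to -1.08 after vasectomised males. Between the mated groups 0 of the 5 were called, with log2 fold-changes from -0.99 to -0.35. Of 8 smooth muscle, 6 blood endothelial, 6 macrophage and 4 oviduct or ovary markers 0 were called in limma relative to control, where 2, 0, 1 and 1 had an unadjusted p under 0.05 for intact and 1, 0, 1 and 1 for vasectomised males. Of 5 squamous markers 1, Dsg3, was higher after intact males (log2 fold-change 1.04). The part of these cell types in the Wnt results was not tested.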

How the data were processed

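RNA (300 ng per array) from endometrium was labelled and hybridised to Affymetrix Mouse Gene 1.0 ST arrays. In Partek Genomics Suite the authors corrected background by RMA, adjusted for probe GC content and summarized probes by their mean; the values they deposited are log2 intensities. Software versions, and any further normalization, were not given in the sources used here. Array medians lay between 7.25 and 7.32 and nothing more was normalized. Of 35556 rows 21789 carried 1 symbol, 1621 several and 12146 none in the array annotation.

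One mean per group was fitted for all rows in limma 3.58.1 (R 4.3.3), with variances moderated (prior degrees of freedom 3.26) and Benjamini-Hochberg adjustment over all rows; the thresholds are those of the methods, which used ANOVA. Groups came from sample titles. The code was tested on simulated data. The number of arrays limits precision. Genes named are the 10, called pathway genes, otherwise the 2 with the largest difference per list, and the 3 most similar to each called gene; others are marked. The genes and lists (8 pathway lists with 92 of 93 genes measured, 10 marker lists with 71 of 75) were chosen with earlier results of these data known.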

Additional observations from a re-analysis of the deposited data

Results flagged for a closer look

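Among 14 genes (the 10 and 4 called pathway genes) 42 groups of 4 arrays were examined for an array far from the rest, of which chance marks about 1 in 20. There were 2: the highest vasectomised-mated array of Wnt7a, at 9.16, with a gap of 0.85 of the group's range, and the highest intact-mated array of Wnt11, at 7.08, with a gap of 0.886 of the range. The response to intact males differed from that to vasectomised males for Wnt7b, by 0.35 on the log2 scale (limma adjusted p = 0.0289), and for Fzd7, by 0.44 (limma adjusted p = 0.0218), with no overlap between the 4 arrays of each group, and both differences were under 1.5-fold.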

How the results depend on the processing

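The calls of Wnt4, Wnt5a and Wnt7b after mating with intact males and of Wnt5a after mating with vasectomised males held under every alternative tried (quantile normalization, median centring, other variance moderation, array weights, 2-group fits, removal of rows with a mean under 7.28, other sets of rows for the adjustment, each array left out, either pair of controls), other than a fold threshold of 2. At that threshold 1 and 0 of the 10 genes and 2 and 1 of the 92 pathway genes were called relative to control in the intact and vasectomised comparisons. With no fold threshold 3 of the 10 were called after vasectomised males and 1 between mated groups, and 14, 5 and 5 of the 92 in the 3 comparisons. Shares of all genes called at these other fold thresholds were not counted. With the replicate number as a block the 10 genes had 3, 1 and 0 calls, as without it, and same-numbered arrays had correlations of -0.26 to 0.20 in their deviations from group means. Leaving out single arrays gave 1 to 2 calls after vasectomised males, with Wnt7b called (0.60) without control array 2, control array 4 or vasectomised array 3.

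With controls 1 and 2 only, a split known from earlier results, 5 and 3 of the 10 and 10 and 8 of the 92 were called relative to control after intact and vasectomised males, Lgr5 and Axin2 among them as lower (Lgr5 -2.44 and -2.41, Axin2 -0.83 and -0.94). With controls 3 and 4 only, Sfrp4 was higher (1.64 and 1.18), 2 of the 10 were called after vasectomised males and 7 of the 92 after intact males. The share of all genes called with either pair of controls was not counted, so these counts have no background beside them. Sfrp4, Lgr5 and Axin2 are the genes whose controls part between these pairs. Their calls against either pair therefore restate that gap and are no further evidence of an effect of mating. Signs turned without a call with controls 1 and 2 for Wnt7a (-0.048, intact), Wnt11 (0.039 and 0.031) and Sfrp4 (-0.13 and -0.59), and with controls 3 and 4 for Lgr5 (0.086 and 0.12), Axin2 (0.43 and 0.32) and Wnt7a (0.14, vasectomised). Leaving out single arrays gave -0.065 to 0.018 for Wnt11 and -0.41 to 0.023 for Axin2 after intact males. After vasectomised males it gave -0.26 to 0.037 for Wnt7a, 0.52 to 0.60 for Wnt7b, -0.079 to 0.0094 for Wnt11 and -0.0091 to 0.60 for Sfrp4. Between mated groups it gave -0.035 to 0.058 for Wnt11, -0.034 to 0.092 for Sfrp1 and -0.073 to 0.036 for Lgr5. The cause was not tested. With rows under 7.28 removed, Wnt11, Sfrp1 and Lgr5 have no value.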
